A study of Mus musculus with 3 samples.

Results

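The genes described here encode the heat shock proteins, the heat shock transcription factors and the co-chaperones that carry a J domain. They were taken from the table of expressed genes by symbol, with the families Hspa, Hspb, Hspd, Hspe, Hsph, Hsp90, Dnaja, Dnajb, Dnajc and Hsf. The rule matched 72 of 19471 genes and left 1 of them out by name, so 71 members remained. The symbol rule itself used no measured value, though earlier results of these data were known when the members were chosen. They are 10 HSP70 genes, 3 HSP110 genes, 3 HSP90 genes, 6 small heat shock genes, the HSP60 and HSP10 genes, 42 J-domain genes, 4 heat shock factors and Hsf2bp, whose product binds the factor HSF2.

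RNA was sequenced from 3 primary cultures of astrocytes, the main glial cells of the brain. Each culture came from the cortex of a different wild-type pup, numbered 5, 6 and 8 in the labels, and they are called replicates 1, 2 and 3. The pups were at postnatal day 1 by the sample titles (the sample descriptions write P0), no transgene or agent is named, and RNA was taken after 7 days in culture. All libraries belong to 1 untreated group, so there was no heat-shocked sample and induction was not measured. Comparisons were made between genes inside each library, or between libraries. Values are the deposited normalized read counts, and a level per kilobase is that count divided by the length of the gene's merged exons. Effects of the pup, of its culture and of its library cannot be told apart, and every p-value describes these cultures only. P-values from limma rest mostly on a variance shared across genes and do not measure the spread between the 3 libraries.

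Heat shock proteins are chaperones that hold unfolded proteins in a soluble state and help them fold, assemble or reach degradation. HSP70 proteins do this in cycles of ATP binding and hydrolysis. J-domain proteins deliver clients to them and speed up hydrolysis, and HSP110 proteins exchange the nucleotide. Many chaperone genes come as sets in which some copies are transcribed in unstressed cells and others are switched on by HSF1, a factor that binds arrays of inverted nGAAn units called heat shock elements, when unfolded protein accumulates in the cytosol. The endoplasmic reticulum has its own chaperones, switched on by the unfolded protein response through elements that hold CCAAT and CCACG.

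The promoters of several members carry these elements, and they are shown because constitutive and stress-responsive members are contrasted below. Promoters from 250 bases before to 50 bases after the start site were available from RefSeq (GRCm38.p6, the mm10 build) for 56 of the 71 members. Hspa8, Hsp90aa1, Hsp90ab1 and Hspa9 were among those without one, so these genes were not searched. A pattern of 3 units (GAANNTTCNNGAA or TTCNNGAANNTTC, both strands) occurred in 4 of the 56, or 7.14%, against 0.662% of all 27025 genes with a promoter. The members were Hspd1, Hspe1, Hsph1 and Dnajb6. Of the lists contrasted below, Hsph1 belongs to the stress-induced one and Dnajb6 to the constitutive one, and Hspd1 and Hspe1 belong to neither. A pattern of 2 units (GAANNTTC or TTCNNGAA), which also matches inside every array of 3, occurred in 15, or 26.8%, against 17.0% of all genes. The endoplasmic reticulum stress element (CCAAT, any 9 bases, CCACG, both strands) occurred in 3 members, Hspa5, Hsp90b1 and Dnajc3, or 5.36%, against 0.137% of all genes. A match describes letters in the window and shows no binding.

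The endoplasmic reticulum stress elements of these 3 genes are in capitals in the sequences that follow, each read 5′ to 3′ on the gene's strand and ending before its RefSeq start site.
Hspa5, chr2:34771980-34772088, plus strand: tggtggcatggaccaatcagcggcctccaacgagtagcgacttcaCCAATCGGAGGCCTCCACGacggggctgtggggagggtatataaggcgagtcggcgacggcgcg
Hsp90b1, chr10:86705488-86705596, minus strand: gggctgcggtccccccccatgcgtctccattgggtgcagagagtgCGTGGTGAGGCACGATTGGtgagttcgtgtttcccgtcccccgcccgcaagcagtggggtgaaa
Dnajc3, chr14:118937782-118937890, plus strand: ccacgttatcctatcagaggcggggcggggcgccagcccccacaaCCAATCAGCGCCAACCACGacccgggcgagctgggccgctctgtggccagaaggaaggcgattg
Hsp90b1 held another match at position -212 from its start site.

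The heat shock elements of 5 members are in capitals in the next sequences, as arrays of 3 or more units for Hspe1 and Dnajb6 and as pairs of units for Hspa1a, Hsph1 and Dnajb4.
Hspe1, chr1:55088014-55088121, plus strand: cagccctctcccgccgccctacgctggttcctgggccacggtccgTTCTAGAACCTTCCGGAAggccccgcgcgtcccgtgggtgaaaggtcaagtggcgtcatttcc
Dnajb6, chr5:29735807-29735909, plus strand: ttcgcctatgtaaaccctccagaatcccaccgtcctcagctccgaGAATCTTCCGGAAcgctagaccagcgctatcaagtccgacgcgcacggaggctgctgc
Hspa1a, chr17:34972208-34972305, minus strand: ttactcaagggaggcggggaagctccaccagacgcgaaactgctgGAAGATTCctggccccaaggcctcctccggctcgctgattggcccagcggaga
Hsph1, chr5:149636317-149636414, minus strand: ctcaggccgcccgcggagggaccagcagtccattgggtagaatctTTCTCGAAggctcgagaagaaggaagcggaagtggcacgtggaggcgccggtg
Dnajb4, chr3:152193846-152193904, minus strand: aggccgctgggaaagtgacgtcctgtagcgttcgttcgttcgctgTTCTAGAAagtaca
The Hspe1 sequence is also the promoter of Hspd1, read from the other strand, since the genes lie head to head on chromosome 1 and their annotated exons overlap by 112 bases. The array of 3 units in Hsph1 lies after its start site and is not printed. Hspa1a and Hspa1b had 296 identical bases of 300 in this window, and both held the pair of units at position -104 from the start site.

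The libraries held 14380993, 25128038 and 9858626 reads in genes, and 1 read was worth a normalized count of 0.813, 0.472 and 1.2 in replicates 1, 2 and 3. The 10 astrocyte markers all averaged 10 or more, among them Gfap at 52283 ± 6679 (SD, n = 3), and 3 of the 6 neuronal markers did. Those were Syt1 at 222, 35.9 and 244, Tubb3 at a mean of 157 and Gad1 at 24.4, while Rbfox3, Snap25 and Slc17a7 stood at 7.65, 2.51 and 0.786. The 6 microglial and the 4 ependymal markers also averaged 10 or more, and several were high. Per kilobase, the microglial markers had a median of 869 (from 121 to 3697) and the ependymal markers 339 (from 18.9 to 3800). The astrocyte markers had a median of 1102 (from 46.3 to 12395). In bulk RNA, fewer cells of a type and less RNA per cell cannot be told apart.

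The mean normalized count reached 10 in 62 of the 71 members, 100 in 54 and 1000 in 23. Together the members took 0.969% of the reads of replicate 1 (95% Wilson interval 0.964% to 0.974%), 0.990% of replicate 2 (0.986% to 0.994%) and 1.06% of replicate 3 (1.05% to 1.06%). These intervals cover counting error only. The median level of the 71 members was 94.9 per kilobase, against 33.9 over all genes. Where the mean reached 10, it was 127 for the 62 members and 71.7 for all genes. Constitutive cytosolic HSP90, constitutive cytosolic HSP70 and Hspb8 stood at the top, and the inducible HSP70 genes were close to the bottom of the detected range.

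**Figure D1:**
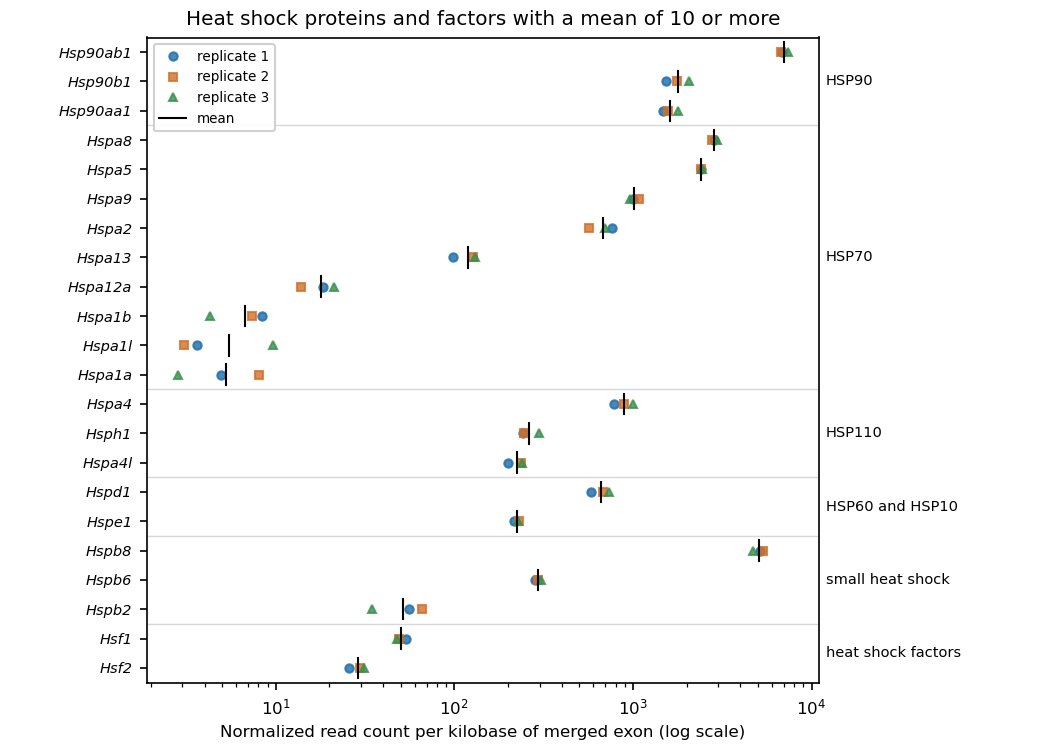
Normalized read count per kilobase of merged exon (log scale) of the 22 heat shock proteins and factors with a mean of 10 or more, by family, with 1 symbol per library and a bar at the mean. Hsp90ab1 stands highest at a mean of 6990 per kilobase, and Hspa1a, Hspa1l and Hspa1b lie between 5.29 and 6.70.

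HSP90 is the chaperone of kinases and steroid receptors. Hsp90ab1, the constitutive cytosolic form, had normalized counts of 20482, 20135 and 22276 in replicates 1, 2 and 3, the highest of all members. Its mean of 20964 ± 1149 (SD, n = 3) gave 6990 per kilobase, which ranked 37 among all genes. Hsp90aa1, the cytosolic form that HSF1 induces, had 5806, 6172 and 6995. It was the highest gene of the stress-induced list given below in all cultures, with no overlap between its values and those of Hsp90ab1. Per kilobase it lay below Hsp90ab1 by a log2 difference of -2.12 ± 0.09 (SE), or 4.35-fold, with -2.21, -2.10 and -2.06 in the single libraries (adjusted p = 3.51e-12, limma). It gave 22.1%, 23.5% and 23.9% of the reads of the cytosolic HSP90 pair. Pseudogenes share 47.5% of the 50-base stretches of Hsp90aa1, so its count is uncertain if the authors' counting split or dropped reads with several matches. Hsp90b1, the HSP90 of the endoplasmic reticulum, had 6214, 7089 and 8359, a log2 difference of -1.97 ± 0.10 from Hsp90ab1 (adjusted p = 1.85e-11, limma).

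All 61 other members tested lay below Hsp90ab1 per kilobase at an adjusted p under 0.05 (limma), as did 99.7% of the 13901 genes tested, so that count says nothing particular of the members.

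Hspa8 encodes HSC70, the constitutive cytosolic HSP70, which folds new proteins and uncoats clathrin vesicles. It had 12161, 11990 and 12642, a mean of 12264 ± 338 (SD, n = 3) and 2851 per kilobase. Hspa1a and Hspa1b, the near-identical genes of the HSP70 that heat shock induces, had a few reads per library. Hspa1a stood at 14.6, 24.1 and 8.37 from 18, 51 and 7 reads, and Hspa1b at 23.6, 20.8 and 12 from 29, 44 and 10 reads. Both were lowest in replicate 3, and no library came near Hspa8. The log2 difference per kilobase from Hspa8 was -9.10 ± 0.28 for Hspa1a, or 548-fold (adjusted p = 2.96e-10, limma), and -8.71 ± 0.22 for Hspa1b, or 419-fold (adjusted p = 7.57e-11, limma). As a share of the cytosolic HSP70 reads, the pair made up 0.269% of them in replicate 1, with a Wilson interval from 0.202% to 0.357%. The share was 0.331% (0.271% to 0.404%) for replicate 2 and 0.140% (0.0873% to 0.224%) for replicate 3. Hspa8 gave 85.5%, 88.6% and 86.9% of them.

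The inducible genes share sequence, which bears on these counts. Of the 50-base stretches of Hspa1a, 60.4% occur in Hspa1b or Hspa1l, and 62.3% of those of Hspa1b occur in the other copies. How the authors counted reads with several matches is not given in the sources used here, and dropping them would lower both genes. Pseudogenes share 38.6% of the stretches of Hspa8, so its count could be lowered in the same way. The sizes of both differences also moved with the length used. With the median length of protein-coding transcripts they were -10.06 and -9.67, and with CPM in place of normalized counts they were -8.31 and -8.05 (limma).

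Hspa1l, a testis HSP70, lies beside them in a cluster on chromosome 17, with Hspa1b at 34956436 to 34959238, Hspa1a at 34969190 to 34972156 and Hspa1l at 34972703 to 34979285 (mm10). Hspa1l had 8.95, 7.55 and 23.9, which rested on 11, 16 and 20 reads, and it was highest in replicate 3 (adjusted p = 0.00145, chi-square test). Its neighbours were lowest there, with an adjusted p of 0.0217 for Hspa1a and 0.224 for Hspa1b in the same chi-square test. Antisense gene Gm10501 overlaps 71.9% of its exon length on the other strand, and without the strand setting of the counting their reads cannot be told apart. Hspa2, a constitutive HSP70 best known from the testis, stood much higher at 2012, 1495 and 1853. It lay below Hspa8 by -2.09 ± 0.09, or 4.25-fold (adjusted p = 7.09e-09, limma), and by -2.98 with the protein-coding transcript length.

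The organelle forms followed Hspa8. Hspa5, which encodes BiP, the HSP70 of the endoplasmic reticulum, had 10139, 10179 and 10274, the smallest spread of any member with a mean of 100 or more. Its log2 difference from Hspa8 was -0.24 ± 0.08, with -0.24, -0.21 and -0.27 by library (adjusted p = 0.0133, limma). The call ended without replicate 1 (adjusted p = 0.0512, limma) and without replicate 2 (adjusted p = 0.0563, limma). The size of the difference moved with the length used. It was -0.48 with the longest transcript and -0.78 with the protein-coding transcript length (adjusted p = 3.42e-06, limma). Hspa9, mortalin of the mitochondrial matrix, had 4328, 4688 and 4135 and lay -1.49 ± 0.08 from Hspa8, or 2.81-fold lower (adjusted p = 4.18e-08, limma). With the protein-coding transcript length the difference of Hspa9 was -1.95. Hspa13, an HSP70-like protein of microsomes, stood at 672, 873 and 896. The divergent HSP70 genes were low, with Hspa12a at 169, 127 and 196 and Hspa12b at 4.88, 6.13 and 3.59.

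Per kilobase, 59 of 61 members lay below Hspa8 at an adjusted p under 0.05 (limma), against 99.0% of all genes tested, and Hsp90ab1 and Hspb8 lay above it.

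**Figure D2:**
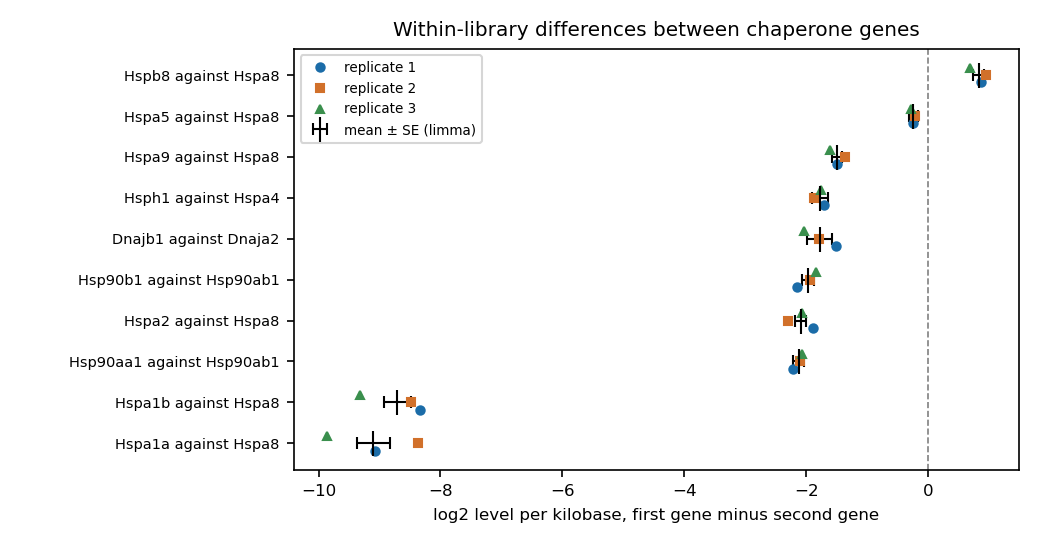
Log2 level per kilobase of the first gene minus the second, in each library (symbols) and as the mean ± SE from limma (black), for 10 pairs. Both inducible HSP70 genes lie between -9.86 and -8.33 from Hspa8, and Hspa5 lies between -0.27 and -0.21 in all 3 libraries.

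HSP110 proteins are nucleotide exchange factors of HSP70. Hspa4, the constitutive form, had 4347, 4910 and 5537. Hsph1, the form that heat shock induces, had 1758, 1774 and 2157, and Hspa4l, a further member of the family, had 2370, 2802 and 2813. All were highest in replicate 3 and lowest in replicate 1. Hsph1 lay below Hspa4 per kilobase by -1.77 ± 0.14, or 3.42-fold (adjusted p = 1.68e-12, limma), and by -0.84 with the protein-coding transcript length. Of all genes tested 94.8% lay below Hspa4, and of the members 52 of 61 did. Dnaja2, Dnajc3 and Hspa9 did not differ from Hspa4 at an adjusted p under 0.05 (limma), and Hsp90aa1, Hsp90ab1, Hsp90b1, Hspa5, Hspa8 and Hspb8 lay above it.

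HSP60 and HSP10 form the folding chamber of mitochondria and share a promoter. Hspd1, the HSP60 gene, had 1541, 1792 and 1936, and Hspe1, the HSP10 gene, had 317, 339 and 335. Both were lowest in replicate 1. Per kilobase they stood at 665 ± 75.6 and 224 ± 7.77 (SD, n = 3). Pseudogenes share 39.7% of the 50-base stretches of Hspd1 and 18.4% of those of Hspe1.

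Small heat shock proteins bind unfolding clients without ATP. Hspb8, a partner of BAG3 in the autophagy of misfolded proteins, had 10086, 10466 and 9208, a mean of 9920 ± 645 (SD, n = 3). At 5087 per kilobase it ranked 55 among all genes and followed Hsp90ab1 among the members. Its partner gene Bag3 stood at 1070, 1087 and 1001. Hspb8 lay above Hspa8 per kilobase by 0.83 ± 0.09 (adjusted p = 9.81e-06, limma), a pair added after its values were seen. The order turned without division by length, at -0.31 (adjusted p = 0.00201, limma), and with the protein-coding transcript length it was -0.03 with no call (adjusted p = 0.77, limma). Hspb6, known from muscle, had 652, 674 and 700. Hspb2 had 46.4, 54.7 and 28.7, and 30.2% of its exon length overlaps Cryab, a small heat shock gene outside the rule that stood at 2931 ± 235. The small heat shock genes Hspb3, Hspb7 and Hspb9 had means of 1.37, 1.76 and 2.14, from 0 to 6 reads per library.

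Heat shock factors were transcribed at modest levels. Hsf1, the factor that switches on heat shock genes, had 383, 350 and 340, a mean of 357 ± 22.8 (SD, n = 3). Hsf2, a related factor that can pair with it, had 247, 284 and 301. Neither varied over libraries beyond read sampling (adjusted p = 0.183 and 0.107, chi-square test). Hsf4, a factor of the lens, stood at 0.813, 0.943 and 0, Hsf5, a testis factor, at 1.63, 3.77 and 7.17, and Hsf2bp at 2.44, 1.42 and 2.39. A count of 0 reads in replicate 3 allows a normalized count of up to 3.59. Transcript levels of HSF1 say nothing of its activity, which is set on the protein.

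The J-domain genes were the largest family, and 40 of 42 had a mean of 10 or more. Dnaja2, a constitutive class A co-chaperone of HSC70, had 1866, 2222 and 2744, or 766 per kilobase. That was the highest level of the family per kilobase of merged exon, with Dnajc3 next at 760. Dnajc3 was higher by normalized count. With the protein-coding transcript length, Dnajc8 (1910) and Dnajc7 (792) were higher per kilobase than Dnaja2 (780). With the longest transcript, Dnajc8 (803) and Dnajc7 (792) were also higher than Dnaja2 (780). Dnaja2 spanned 1.47-fold between libraries, and Hspa8 1.05-fold. Dnajb1, the class B co-chaperone (HSP40) that heat shock induces, had 707, 692 and 719. It lay below Dnaja2 by -1.78 ± 0.21, or 3.43-fold, with -1.51, -1.79 and -2.04 by library (adjusted p = 3.9e-17, limma). Below Dnaja2 lay 92.7% of all genes tested and 49 of 61 members. Dnajc3, Dnajc8, Hspa2, Hspa4, Hspa9 and Hspd1 did not differ from it at an adjusted p under 0.05 (limma).

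Other cytosolic members covered a wide range. Dnajc7, a constitutive protein that binds both HSP70 and HSP90, had 1827, 1752 and 1960. Dnajb2, a chaperone that targets clients to the proteasome, had 1200, 1044 and 959. Dnaja1, of class A, had 872, 1076 and 1265, and its relative Dnaja4 had 217, 213 and 225. Dnajb4, the other inducible HSP40 gene, had 594, 739 and 706. Dnajb6, which suppresses aggregation of polyglutamine proteins, had 199, 234 and 163. Its level per kilobase was 32.8 with merged exons and 194 with the protein-coding transcript length, and that of Dnajb4 was 77.5 and 276, so the order of these genes depends on the length used. Opposite Dnaja4, Wdr61 overlaps 44.1% of its exon length.

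In the nucleus, Dnajc8, a protein tied to splicing, had 1305, 1229 and 1888, and Dnajc9, a histone co-chaperone, had 710, 800 and 973. Both were highest in replicate 3, and Dnajc8 had the largest SD of log2 values (0.335) among members with a mean of 100 or more. On vesicles, Dnajc5, the cysteine string protein known from synaptic vesicles, had 2178, 2298 and 2264, and Dnajc13, an endosome protein, had 1088, 1264 and 1191. Dnajc5 did not differ between libraries beyond read sampling (adjusted p = 0.316, chi-square test).

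Dnajb13, a protein of the radial spokes of motile cilia, had 700, 505 and 753. The ependymal marker list summed to 13230, 9835 and 11248 in the same libraries, also lowest in replicate 2. Its leading gene Foxj1 had 11671, 8764 and 9465 and gave most of this sum. Each ependymal marker was lowest in replicate 2. Cfap44 and Tmem212 were highest in replicate 3, as Dnajb13 was, and Foxj1 and Rsph1 in replicate 1. The part of ciliated cells in the level of Dnajb13 was not tested. In addition, 11.2% of its exon length overlaps Ucp2 on the other strand. The J-domain genes Dnajb7 and Dnajc22 were near the floor, with means of 0.954 and 2.85.

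**Figure D3:**
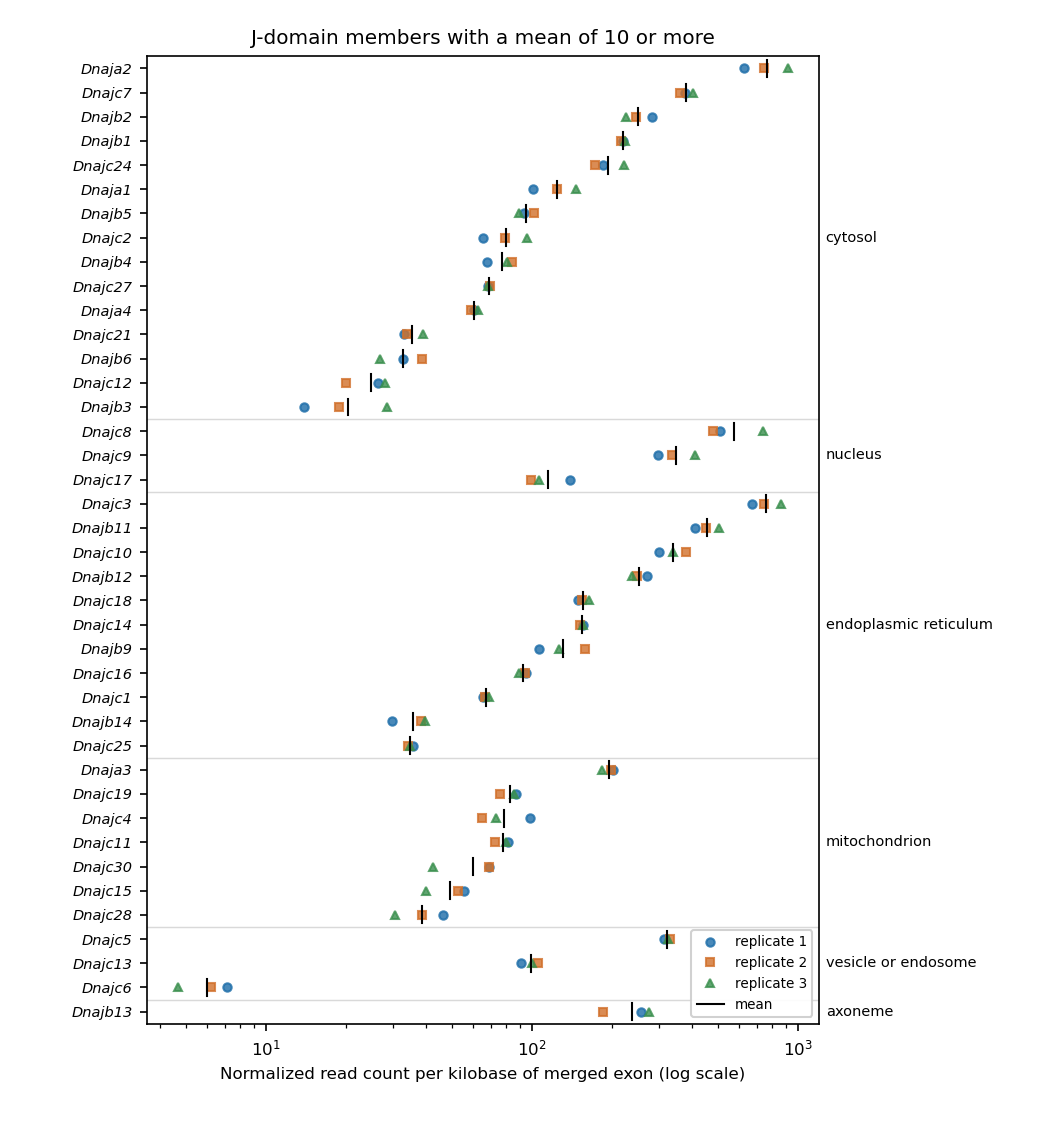
Normalized read count per kilobase of merged exon (log scale) of the 40 J-domain genes with a mean of 10 or more, by compartment, with 1 symbol per library and a bar at the mean. Dnaja2 in the cytosol (766) and Dnajc3 in the endoplasmic reticulum (760) stand highest, and Dnajc6 lowest at 6.01.

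The endoplasmic reticulum held several abundant J-domain members. Dnajc3 (P58IPK), which restrains a stress kinase of the unfolded protein response, had 3465, 3829 and 4428. Dnajb11 (ERdj3), a co-chaperone of BiP, had 1327, 1460 and 1638, and Dnajc10 (ERdj5), a disulfide reductase, had 1505, 1903 and 1704. Dnajb12, in the membrane of the compartment, had a mean of 850 ± 55.2 (SD, n = 3). Dnajb9 (ERdj4), which responds strongly to endoplasmic reticulum stress, was the lowest of the 5 J-domain members named here by normalized count, at 272, 405 and 323. The 11 J-domain genes of this compartment had a median of 155 per kilobase, against 77.9 for the 7 of mitochondria and 78.8 for the 16 of the cytosol. With the protein-coding transcript length they were 166, 102 and 195, so the order of the endoplasmic reticulum and the cytosol turned. These medians were not compared by a test.

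Among mitochondrial J-domain genes, Dnaja3 (Tid1), the partner of mortalin, had 787, 779 and 720 and was the highest per kilobase at 195. Dnajc11, of the inner membrane organizing machinery, had more reads at 870, 774 and 851. Dnajc19, at the protein import motor, had 351, 305 and 344. Dnajc28 had 166, 138 and 109, lowest in replicate 3. At the low end Dnajc30, named after its values were seen, had 115, 114 and 70.6, and 26.3% of its exon length overlaps Bud23 on the other strand.

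The stress-induced list (Hspa1a, Hspa1b, Hsp90aa1, Hsph1, Dnajb1 and Dnajb4) was then set against the constitutive cytosolic list (Hspa8, Hsp90ab1, Hspa4, Dnaja2, Dnajc7 and Dnajb6). The median log2 level per kilobase of the stress-induced list was 6.94, 7.08 and 7.07 in replicates 1, 2 and 3, and that of the constitutive list was 9.46, 9.67 and 9.91. The stress-induced median was lower by -2.52, -2.59 and -2.84 in the single libraries. Over all detected genes, those averaging 10 or more, the median was 6.15, 6.17 and 6.17, so both list medians lay above it. The lists overlapped in level. Hsp90aa1 at 1609 per kilobase stood above Hspa4, Dnaja2, Dnajc7 and Dnajb6, whereas Dnajb6 at 32.8 stood below 4 of the 6 stress-induced genes. No p is given for a list, and 3 libraries allow an exact sign-flip test no p below 0.25.

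The cultures were then compared with each other. A chi-square test set the spread against read sampling, and 42 of the 62 members passed it at an adjusted p under 0.05, against 55.4% of all 13941 genes tested. This held for 6 of 6 constitutive, 4 of 6 stress-induced, 6 of 7 members of the endoplasmic reticulum stress list and 8 of 10 mitochondrial members. That stress list holds Hspa5, Hsp90b1, Hspa13, Dnajc3, Dnajb9, Dnajb11 and Dnajc10, and of all 14 members placed in the endoplasmic reticulum 8 passed. Abundant genes pass this test at small differences, so the size matters more than the call. At a mean of 100 or more, 37 of 54 members passed, against 65.8% of all such genes. For members with a mean of 100 or more the median SD of log2 values was 0.143, from 0.00984 for Hspa5 to 0.335 for Dnajc8, and over all such genes the median was 0.140. With 1 library left out, 30 members passed in each case, against 35.8% to 40.2% of all genes.

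Among the members that differed, Hsp90b1 moved over 1.35-fold (adjusted p = 1.21e-65, chi-square test), Hspa4 over 1.27-fold (adjusted p = 8.53e-29) and Dnaja2 over 1.47-fold (adjusted p = 2.54e-35). All of them were lowest in replicate 1 and highest in replicate 3. Hspb8 and Hspa9 ran differently, highest in replicate 2 and lowest in replicate 3. Stress-induced Dnajb1 had nearly the same value in all libraries, with an SD of log2 values of 0.028 (adjusted p = 0.633, chi-square test). Dnajc27, named after its values were seen, varied still less at 347, 355 and 348 (SD of log2 values 0.017).

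**Figure D4:**
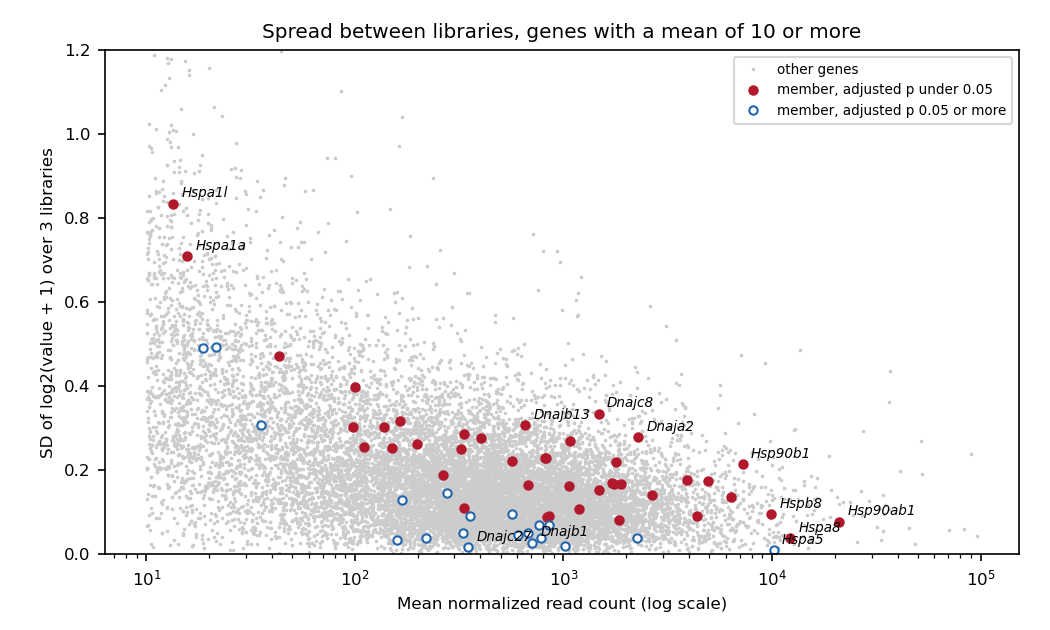
SD of log2(value + 1) over the 3 libraries against the mean normalized read count (log axis) for detected genes (grey, mean at or above 10, cut at an SD of 1.2) and for members that differed between libraries (red) or did not (open blue) in the chi-square test. Hspa1l and Hspa1a have the largest SDs at 0.835 and 0.710 with means under 20, and Hspa5 has the smallest at 0.00984.

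Of the 42 members that differed, 23 were highest in replicate 3 (54.8%), 10 in replicate 1 and 9 in replicate 2. Of all genes that differed, 36.5% were highest in replicate 3, and genes both called and highest there made up 20.2% of all genes tested. Replicate 3 was also the shallowest library. Its summed astrocyte markers (130665, 135919 and 114178 in replicates 1, 2 and 3) and microglial markers (21636, 16924 and 14874) were the lowest. Gfap was the largest part of the astrocyte sum. All single markers of both lists were lowest there, except Aqp4, lowest in replicate 1, and Sox9, Ctss and Aif1, lowest in replicate 2. The part of cell makeup and depth in the share of members highest in replicate 3 was not tested. In the endoplasmic reticulum stress list, Hsp90b1, Dnajc3, Dnajb11 and Hspa13 were highest in replicate 3 while Dnajc10 and Dnajb9 were highest in replicate 2. Each of these 6 was lowest in replicate 1, and Hspa5 was the member of that list that did not pass the test (adjusted p = 0.531, chi-square test).

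**Figure D5:**
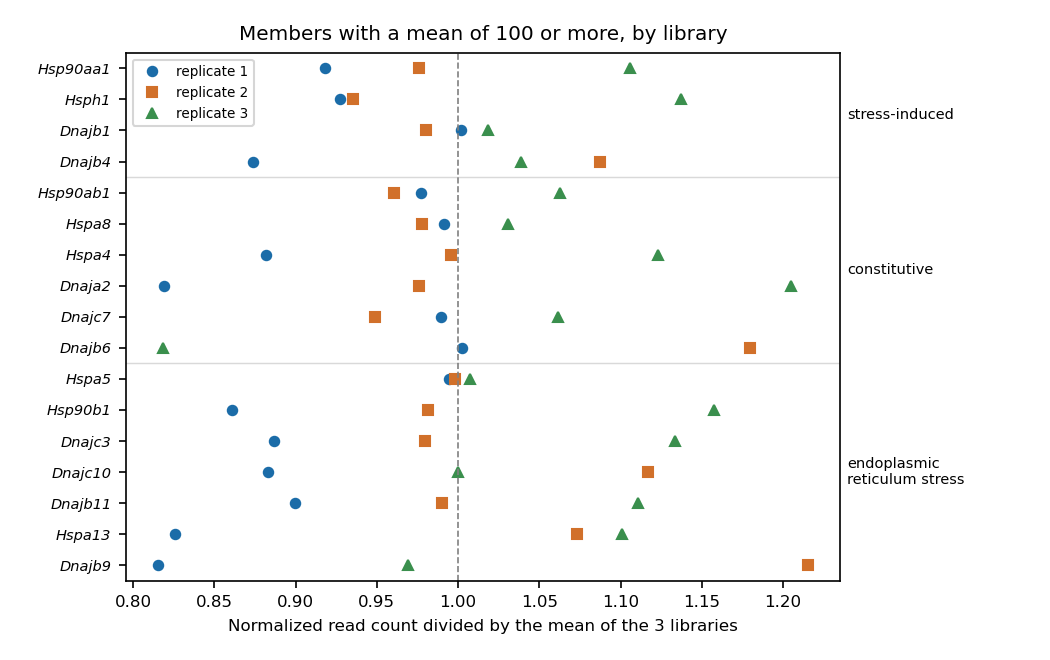
Normalized read count in each library divided by the gene's mean over the 3 libraries, for the stress-induced, constitutive and endoplasmic reticulum stress lists' members with a mean of 100 or more. Most members lie to the right in replicate 3 (green) and to the left in replicate 1 (blue), Hspa5 and Dnajb1 stay near 1, and Dnajb6 lies lowest in replicate 3.

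The partners of these chaperones outside the symbol rule were expressed as well. The 22 co-chaperones of HSP90 and HSP70 without a J domain were all detected, that is, averaged 10 or more. Their median was 246 per kilobase, led by the HSP70 to HSP90 adaptor Stip1 (1143), Bag1 (1070) and Fkbp4 (679), with Bag4 lowest at 15.8. Reads of 17 of the 22 differed between libraries, against 55.4% of all genes tested. All 22 had a mean of 100 or more, and of all such genes 65.8% differed. Both shares apply to each such count below, since most genes of these lists reached that mean. Of 14 HSF1 target and stress genes, among them Bag3 of the list above, 13 were detected and 10 of these differed between libraries. The collagen chaperone gene Serpinh1 (3474 per kilobase), Ubb (2560) and Cryab (1982) were the highest and the pseudokinase gene Trib3 the lowest at 2.75. Of these 14 genes, all but Trib3 stood above Hspa1a (5.29 per kilobase) and Hspa1b (6.70) by mean level.

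For the endoplasmic reticulum, all 18 folding and stress genes were detected, with the highest levels for calreticulin (Calr, 3344 per kilobase), P4hb (2409) and Pdia4 (2157), with the stress sensor Ern1 lowest at 26.9. Reads of 11 of the 18 differed between libraries, near the shares of 55.4% over all genes and 65.8% over those with a mean of 100 or more. In mitochondria all 10 were detected, with Trap1 (584), the HSP90 of that organelle, Clpp (414) and Lonp1 (303) highest and Grpel2 lowest at 31.8. Reads of 6 of the 10 differed, also near both shares. The 8 subunit genes of the cytosolic chaperonin TRiC had a median of 620 per kilobase, from 370 for Tcp1 to 1301 for Cct5, with Cct2 (1208) and Cct8 (816) next, and 7 of 8 differed. Of 5 J-domain genes under other symbols, Sec63 (216), Gak (208) and Hscb (180), which the mitochondrial list also holds, were the highest and Samd13 the lowest (1.03), and 2 of the 4 tested differed. Among 6 genes listed for the proteasome and p97, the transcription factor gene Nfe2l1 (1197), the p97 gene Vcp (694) and the proteasome gene Psma1 (424) led. Psmc2 (312) was lowest, and 5 differed.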

How the data were processed

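Poly(A) RNA of 3 astrocyte cultures was sequenced with a stranded kit, per the labels. The values are a deposited signal, namely a read count per gene that the authors normalized with DESeq2 on mm10, per the submitters' processing notes. The aligner, the counting tool, its strand setting and its handling of multiple matches were not given in the sources used here. Values are not divided by length in the deposited table. They were whole multiples of 1 read in 100% of cases within 0.05 reads, so whole reads were recovered. Library totals were 14380993, 25128038 and 9858626 reads, with size factors of 1.23, 2.12 and 0.836.

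Of 19471 gene identifiers, 99.5% were found in GENCODE M21 (mm10), which gave merged exon lengths. Within-library differences of log2(value + 1) per kilobase from a reference gene were fitted with an intercept-only limma model (trended prior) over 13901 genes with a mean of 10 or more, adjusted by Benjamini-Hochberg. Its standard errors draw mostly on a variance shared across genes, and the reference gene's own noise enters every difference of a fit. The adjusted p for Hsp90aa1 against Hsp90ab1 was 3.51e-12 with all libraries and 6.47e-47 without replicate 1 (limma). These p-values therefore do not measure the spread between libraries, which the single-library differences show. As a count test on the recovered reads, edgeR's quasi-likelihood test called 13763 genes below Hspa8 and 13860 below Hsp90ab1. A chi-square test over the libraries used the reads of 13941 genes with at least 30 reads. The unmatched promoters were not used. R 4.3.3, limma 3.58.1, edgeR 4.0.16, Python 3.11.15, matplotlib 3.10.9, SciPy 1.17.1, pandas 2.3.3 and numpy 2.4.6 were used. Of the procedures, only the limma, edgeR and chi-square tests were run on simulated data.

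The members, the lists, the tests and the pairs were chosen with earlier results of these data known. Named are all heat shock proteins and factors, the J-domain genes highest per kilobase overall and per compartment, in a list or pair, most variable or under a mean of 10, and the 3 highest and the lowest of each pathway list. Dnajc11, Dnajc27, Dnajc30, Dnaja1, Dnaja4 and the Hspb8 pair were added with their values in view. Alternatives were another pseudocount, length, filter, prior, scaling and test, and each library left out in turn.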

Additional observations from a re-analysis of the deposited data

How the results depend on the processing

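No paired analysis was possible because the libraries form a single group. Of 110 alternatives to the 10 pairs, 106 kept their direction and call. Hspa5 against Hspa8 kept its direction in all, with -0.26 to -0.22 with 1 library left out, and lost its call without replicate 1 and without replicate 2. Its size moved to -0.48 with the longest transcript and to -0.78 with the protein-coding transcript length. Hspb8 against Hspa8 turned to -0.31 without division by length and to -0.027 with the protein-coding transcript length, a length chosen after seeing the data for every result. With 1 library left out the other pairs ranged from -1.91 to -1.65 (Dnajb1), -2.15 to -2.08 (Hsp90aa1), -2.04 to -1.89 (Hsp90b1), -9.46 to -8.72 (Hspa1a), -8.90 to -8.41 (Hspa1b), -2.18 to -1.98 (Hspa2), -1.55 to -1.43 (Hspa9), -1.81 to -1.73 (Hsph1) and 0.78 to 0.91 (Hspb8).

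The stress-induced minus constitutive median moved to -3.22 with means, -2.26 without division by length, -2.38 with the longest transcript, -2.34 with the wider stress-induced list and -1.86 with the protein-coding transcript length, and from -2.71 to -2.56 with 1 library left out. The cause was not tested. The number of members differing between libraries was 37 to 42 under other filters and scaling, against 53.5% to 65.8% of all genes. At a mean of 100 or more it was 37 of 54, against 65.8%. With each library left out it was 30 of 61 or 62, against 35.8% to 40.2%. Depth limits Hspa1a, Hspa1b and Hspa1l, which rested on 7 to 51 reads per library.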
